A study of Drosophila melanogaster with 2 samples.

Results

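Head gap and terminal gap genes encode transcription factors that divide the ends of the early Drosophila melanogaster embryo into territories. The group described here is a list of 9 named genes, out of 13968 protein-coding genes on the chromosome arms: oc, ems and btd, tll and hkb, gt, kni and knrl, and cnc. For each gene, every region with its summit in the gene body or within 20000 bp was read from the deposited ChIP-seq lists for the nuclear protein Dan. ChIP-seq (chromatin immunoprecipitation followed by sequencing) marks the DNA that lies with a protein in fixed chromatin. The flies carried dan fused to eGFP, and the fusion protein was pulled down with an antibody to GFP. Whole embryos, 0 to 8 h old, formed a single group of 2 biological replicates, with no second condition, so a region averages over all cells of the embryo and over stages before and after the gap genes are active. Chromatin was cut by sonication to 200 to 800 bp, and the depth of the libraries is unknown.

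In the early embryo, the maternal protein Bicoid forms a gradient from the front, and the receptor Torso is active at both ends. Bicoid switches on the head gap genes oc, ems and btd in overlapping bands. Torso signalling lifts repression by Capicua and Groucho, which allows tll and hkb to be expressed at the ends. The genes gt, kni and cnc have domains in the head, and gt and kni also pattern the trunk.

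Dan peaks lay in the surroundings of 4 of the 9 genes. Within 2000 bp of a start none of the 9 had one, where 6.49% of all protein-coding genes did, so a count of 0 is also near the background. The conservative list, which holds regions whose rank agreed between the replicates, had 5 peaks in the windows: 1 at oc, 2 at ems, 1 at knrl and 1 at cnc. All 5 summits lay outside the body of the gene, 6074 to 14052 bp from its nearest start site. No conservative peak lay in the windows of btd, tll, hkb, gt or kni. A window of this size is wide, and 34.5% of all protein-coding genes had a conservative peak in theirs, so 4 of 9 is near the background. The windows held 10.9 conservative peaks per Mb, beside 7.84 per Mb over the arms. At the density of the arms 3.60 peaks would lie in the windows, so 5 is also near the background. Replicate 2's own list, which leaves replicate 1 out, marked only oc and ems, where the background was 21.8%. Replicate 1's own list marked oc, ems and cnc, with a background of 33.2%. Each replicate's list had 3 peaks in the windows in place of 5.

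How many genes had a peak followed the width of the window and the threshold, for the 9 genes as for all genes. With the gene body alone or 5000 bp on each side none of the 9 had one, where 3.5% and 14.6% of all genes did. With 10000 bp the count was 2, oc and cnc, beside 22.2%, and with 50000 bp it was 7, all but hkb and kni, beside 58.6%. Taking each peak only for the gene with the nearest start left oc and ems, beside 6.33%. The other thresholded list of both replicates marked the same 4 genes, beside 38.8%. A limit on the irreproducible discovery rate (IDR, a measure that falls as the ranks of a region agree between sets of calls) of 0.001 left oc and ems, beside 15.7%. A limit of 0.05 added tll to the 4, beside 55.6%; the conservative list has a limit of 0.01.

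The sequence around 4 of the 5 summits, those at oc, ems and cnc, is printed because these are places the results turn on. Each line gives the 201 bases centred on the summit, from the RefSeq Release 6 sequence, which has the coordinates of dm6, on the plus strand. Capitals mark matches on either strand to the 9 strings named in the paragraph after the sequences, some of which overlap.
oc, chrX:8656655-8656855: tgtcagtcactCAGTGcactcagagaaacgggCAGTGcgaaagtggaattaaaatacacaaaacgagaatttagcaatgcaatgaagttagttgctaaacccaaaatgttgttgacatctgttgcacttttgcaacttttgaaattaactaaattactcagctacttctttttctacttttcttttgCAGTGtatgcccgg
ems, nearer peak, chr3R:13914806-13915006: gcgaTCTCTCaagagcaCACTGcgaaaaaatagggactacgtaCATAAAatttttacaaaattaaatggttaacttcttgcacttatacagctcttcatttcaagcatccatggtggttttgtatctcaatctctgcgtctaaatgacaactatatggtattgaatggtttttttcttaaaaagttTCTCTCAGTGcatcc
ems, farther peak, chr3R:13915755-13915955: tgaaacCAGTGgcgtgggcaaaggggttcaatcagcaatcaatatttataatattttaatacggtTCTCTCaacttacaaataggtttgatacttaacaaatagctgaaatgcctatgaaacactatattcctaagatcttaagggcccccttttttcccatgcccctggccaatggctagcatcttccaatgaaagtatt
cnc, chr3R:23175482-23175682: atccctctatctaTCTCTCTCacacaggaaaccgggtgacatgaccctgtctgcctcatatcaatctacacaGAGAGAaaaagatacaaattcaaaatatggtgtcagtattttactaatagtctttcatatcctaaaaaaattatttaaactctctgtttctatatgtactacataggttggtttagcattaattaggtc

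The strings are short forms of sites known for Bicoid (TAATCC), Zelda (CAGGTAG), Capicua (TGAATGAA and TCAATGAA), Tailless (AAGTCA), Caudal (TTTATG), Hunchback (TTTTTTG) and GAGA-binding proteins (GAGAGA), and CAGTG was taken from earlier results of these data. CAGTG was in 3 of the 4 windows, with 3 matches at oc, 2 at the nearer ems peak and 1 at the farther. Of all 1078 conservative peaks on the arms, 54.0% held it in a window of the same length, beside 35.9% of ranked regions and 37.4% of windows centred on gene starts. Because CAGTG was taken from these data, its higher share in the peaks is not an independent result. GAGAGA was also in 3 windows, both at ems and the one at cnc, which had 3 matches, 2 of them overlapping. It was in 11.3% of conservative peaks, 6.82% of ranked regions and 8.36% of gene starts. With 4 windows, 2 of them at ems, and strings chosen with results known, this count is not read as a result.

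TTTATG was in 1 window, that of the nearer ems peak, and in 21.6% of all conservative peaks. The strings of Bicoid, Zelda, Capicua, Tailless and Hunchback had 0 matches in the 4 windows. Of all conservative peaks, 6.96% held that of Bicoid, 1.30% that of Zelda, 1.76% and 0.557% those of Capicua, 10.4% that of Tailless and 12.6% that of Hunchback. A match is only a match of letters.

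All 4 windows were rich in A and T, like most conservative peaks. GC content was 37.3% at oc, 34.8% and 38.3% at the nearer and farther ems peaks and 33.8% at cnc. Over the 1078 conservative peaks the median was 36.8%, with quartiles of 32.8% and 44.8%. Ranked regions of all strengths had a median of 47.8%. The 4 windows lay between the quartiles of the peaks.

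The gene oc (ocelliless, also called orthodenticle) encodes a homeodomain factor of the anterior head. Its peak, at 8656580 to 8656929 on X, was intergenic and 6074 bp upstream of the outermost start site. Signal there was 72.8 in replicate 1 and 80.0 in replicate 2, and 147 in the list made from both. The signal is the peak caller's own value on a scale that the sources used here do not state, so each value is read against the other regions of its list. Replicate 1's value was at the 99.5th percentile of 109692 ranked regions and replicate 2's at the 99.8th of 111665. Both replicates held the region in their thresholded lists, and their summits were 20 bp apart.

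No other region around oc came near this level. The next strongest in replicate 1 had a signal of 29.1, at 36344 bp downstream of the start, and in replicate 2 it was 28.7, at 19008 bp upstream. The body of oc and the 20000 bp on each side held 19 ranked regions in the list of both replicates, or 3.14 per 10 kb, and 8.46% of protein-coding genes had a lower density. Replicate 1 had 29 regions there, or 4.79 per 10 kb, and replicate 2 had 21, or 3.47. There was no other protein-coding gene in this window.

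The gene ems (empty spiracles) encodes a homeodomain factor of the head and of the openings of the tracheal system. Its peaks formed a pair 949 bp apart from summit to summit, in intergenic sequence 10286 and 11235 bp beyond the end of the gene. The next gene on that side, Art9, started 26383 bp past the farther summit. That peak, at 13915680 to 13916029 on 3R, had a signal of 64.6 in replicate 1 and 77.5 in replicate 2, at the 99.4th and 99.8th percentiles. The nearer peak, at 13914731 to 13915080, had 44.0 and 53.2, at the 98.9th and 99.5th percentiles. In both replicates the farther peak was the stronger.

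Only replicate 2's own list held both ems peaks. The nearer peak had a score of 827 in replicate 1, where the lowest score in its thresholded list was 831. The score grows as the IDR falls, on a logarithmic scale that stops at 1000. The IDR of the nearer peak was 0.0102 within replicate 1 and 0.00513 within replicate 2, beside a threshold of 0.01. On the other side of ems, towards its neighbour E5, a related homeobox gene, 3 regions of the list of both replicates had signals of 56.5, 55.8 and 55.0. The last of these lay 16688 bp upstream of ems and nearer to the start of E5, with an IDR of 0.0399 and signals of 31.8 and 25.6 in replicates 1 and 2.

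The gene btd (buttonhead) encodes a zinc finger factor needed for the head segments. By signal, it had the weakest surroundings of the 9 genes in the list of both replicates. Its strongest region there had a signal of 30.2, at the 74.7th percentile of ranked regions, and 1.22% of protein-coding genes had a weaker strongest region. Shares of this kind are of all 13968 genes. Genes with no ranked region in their window are not counted as weaker, and in the list of both replicates 13612 had at least 1. In replicate 1 the strongest region had 21.1 and lay in an exon of nej, which encodes a histone acetyltransferase, 14397 bp upstream of btd. In replicate 2 it had 17.2 and was intergenic, 10503 bp downstream of the start. The replicates thus put their strongest region 24900 bp apart, and the closest conservative peak was 43248 bp from the gene. The order of the genes depends on the measure. By −log10 q, another value in the list of both replicates, hkb was the lowest of the 9, at the 40.8th percentile. By that value btd was at the 91.2nd.

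**Figure D1:**
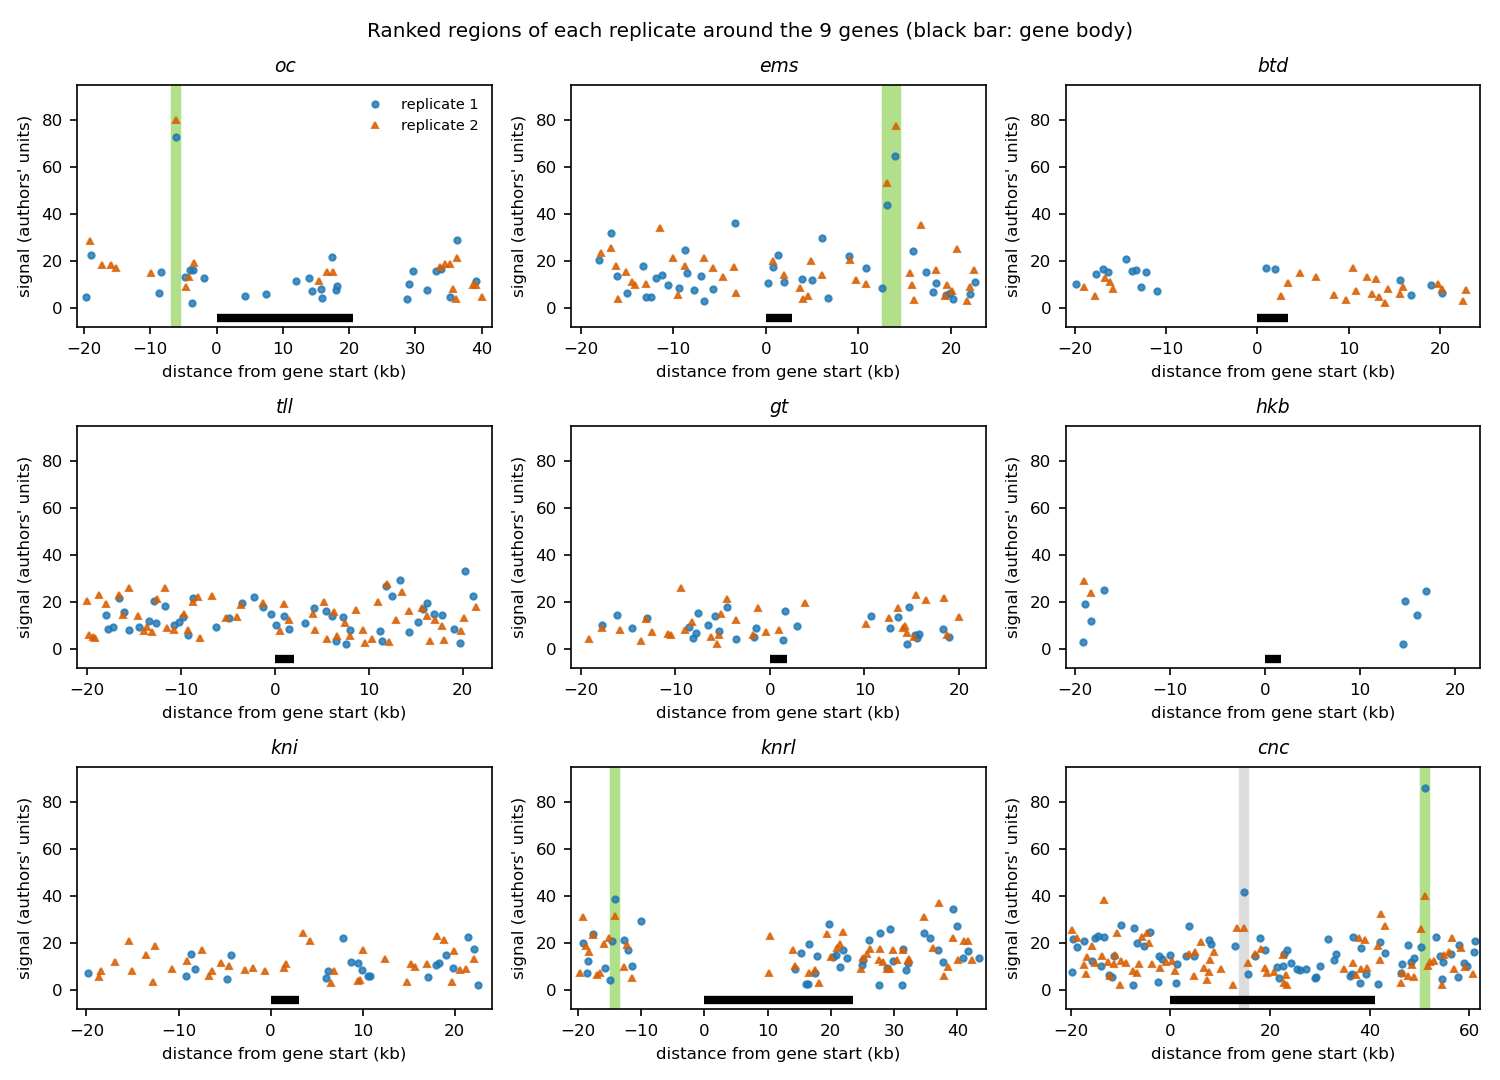
Signal of every ranked region of replicate 1 (blue circles) and replicate 2 (orange triangles) against the distance of its summit from the outermost gene start in kb, for each of the 9 genes, with black bars for gene bodies, green bands for conservative peaks and a grey band for the peak of the other thresholded list (bands are wider than the peaks). At oc and ems the points in the green bands stand above all others in both replicates, at cnc replicate 1 reaches 86.0 and replicate 2 reaches 40.0, and btd, tll, gt, hkb and kni have no band.

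The terminal gap gene tll (tailless) encodes a nuclear receptor that acts as a repressor at both ends of the embryo. It had the densest set of ranked regions among the 9 genes: 65, or 15.4 per 10 kb, a density above that of 95.5% of protein-coding genes. Densities in the replicates were 11.4 and 13.5, above 86.2% and 95.9% of genes. None of these regions was strong. The highest in the list of both replicates had a signal of 50.03, 11929 bp downstream of the start and 3277 bp from the start of Cpr100A, with an IDR of 0.0418. At that place replicate 1 had 27.0 and replicate 2 had 27.8, at the 94.9th and 94.2nd percentiles. Replicate 1 had a stronger region elsewhere, with 33.3 at 20202 bp downstream of the start, at the 97.8th percentile. A region 120 bp from the start of tll had a signal of 11.1, at the 23.2nd percentile.

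The other terminal gap gene, hkb (huckebein), which encodes a zinc finger repressor, had few ranked regions of any strength. The list of both replicates had 2 ranked regions in its window, or 0.480 per 10 kb, where the median over all genes was 10.5, and 3.19% of genes had a lower density. Replicate 1 had 8 regions and replicate 2 had 2. The gene lay in a stretch of 72877 bp on 3R with no ranked region in the list of both replicates as used here, from the summit at 4292048 to that at 4364925. Among 126637 such stretches on the arms, 35 were longer, and 403 were over 25000 bp. In replicate 1 the stretch was 31458 bp and in replicate 2 it was 72315 bp. The lists give neither read coverage nor mappability, and the part of these in the stretch was not tested.

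Both regions at hkb lay in exons of CG1090, near the edge of the window. The stronger had a signal of 49.8, 19065 bp upstream of hkb. Replicate 1's strongest had 25.3 and replicate 2's had 28.8, also in CG1090, with summits 2147 bp apart. The closest conservative peak was 130790 bp away, the longest such distance among the 9 genes.

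**Figure D2:**
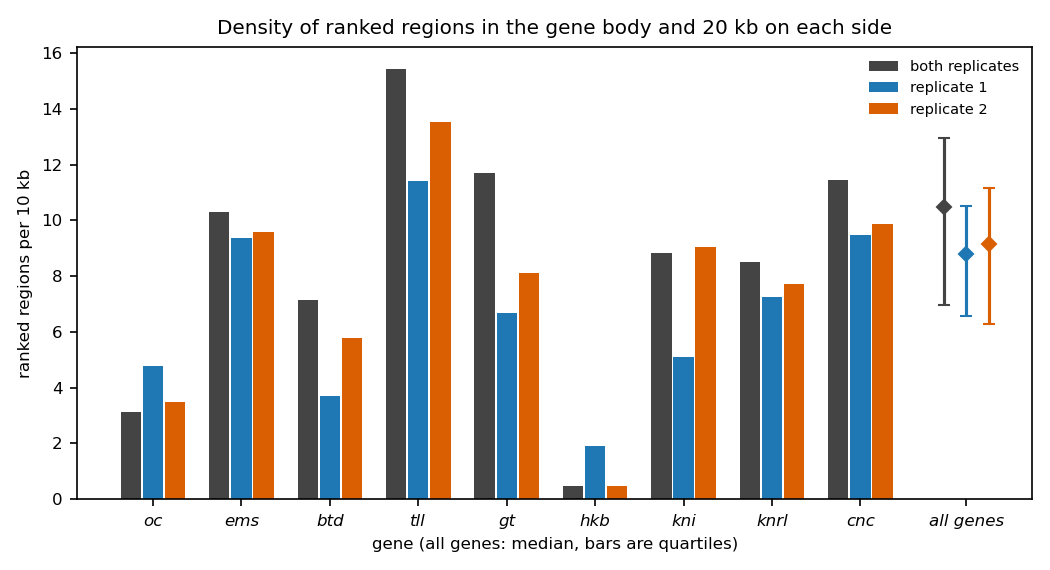
Ranked regions per 10 kb in the gene body and 20 kb on each side, as bars for each of the 9 genes in the list of both replicates (dark), replicate 1 (blue) and replicate 2 (orange), and as the median with quartiles over 13968 protein-coding genes at the right. The bars of tll reach 15.4, 11.4 and 13.5, and those of hkb 0.480, 1.92 and 0.480.

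The gene gt (giant) encodes a leucine zipper repressor with a head domain and a trunk domain. Its strongest region in the list of both replicates lay in its own exon, 1576 bp from the start, with a signal of 39.3 at the 88.7th percentile. The values of the replicates were unlike: replicate 1's strongest region had 18.1, at the 77.6th percentile and 4519 bp upstream. Replicate 2's had 26.2, at the 92.5th percentile and 9451 bp upstream. A region with its summit 3 bp from the start of gt had a signal of 25.02, at the 63.1st percentile of ranked regions of both replicates. In the replicates' own lists the region nearest to the start lay farther away. It was at 1348 bp in replicate 1, with 3.96 at the 7.45th percentile. In replicate 2 it was at 425 bp, with 7.26 at the 19.8th percentile. Only 5.15% of protein-coding genes had a weaker strongest region in the list of both replicates, 1.17% in replicate 1 and 12.1% in replicate 2.

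The neighbours kni (knirps) and knrl (knirps-like) encode related nuclear receptor-like repressors that share much of their expression. Ranked regions differed in strength between them. In the list of both replicates the strongest at kni had an IDR of 0.486, far above the threshold. The knrl peak, on 3L, was intergenic, 14052 bp upstream of knrl and 2488 bp from the start of CG13251. Replicate 1 had a signal of 38.9 there and replicate 2 one of 31.4, at the 98.6th and 96.8th percentiles. Neither replicate's thresholded list held it. Its IDR between the replicates was 0.00991, just inside the threshold of 0.01, and within the replicates it was 0.269 and 0.673. Of the 5 peaks it was the weakest, at place 964 of the 1170 conservative peaks by signal.

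On the other side of knrl, towards the 3' end, regions of similar strength were found beyond the gene. The strongest region of replicate 2 in the whole window was there, with a signal of 37.2 at 37097 bp from the start. Replicate 1 was weaker at this place, with 17.0 at 36927 bp, at the 73.7th percentile. Another, 34786 bp from the start, had an IDR of 0.0433 in the list of both replicates, with 24.2 in replicate 1 and 31.3 in replicate 2. A stretch of 25300 bp around the start of knrl had no ranked region in that list.

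Around kni, no region passed the 90th percentile in either replicate. The strongest in replicate 1 had a signal of 22.7, at the 89.5th percentile and 21416 bp downstream of the start. In replicate 2 it had 24.4, at the 89.8th percentile and 3550 bp downstream. These summits were 17866 bp apart. The knrl peak was also the conservative peak closest to kni, at 57619 bp.

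The gene cnc (cap-n-collar) encodes a leucine zipper factor of the head segments and, in a longer form, of the response to oxidative stress. With 41132 bp and 10 start sites it was the longest of the 9 genes. Its conservative peak, at 23175407 to 23175756 on 3R, lay 9998 bp beyond the 3' end. It was in an intron of Irk1, a potassium channel gene, and of the overlapping CG46310, 1709 bp from their start. Signal was 86.0 in replicate 1 and 40.0 in replicate 2, at the 99.7th and 98.9th percentiles. Replicate 1's thresholded list held it. In replicate 2 it scored 599, an IDR of 0.0359, and was not in the list. By the ratio of signals, replicate 1 over replicate 2, this was the largest difference among the 5 peaks, at 2.15. The ratios of the others were between 0.827 and 1.24. Whether the lists of the replicates share a signal scale is not stated. By percentile the replicates differed more at the knrl peak, at the 98.6th and 96.8th.

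A weaker region in an intron of cnc itself was the only thresholded peak inside any of the 9 genes. It was in the other thresholded list of both replicates and not in the conservative one, at 23211824 to 23212173. The nearest of the start sites of cnc was 2558 bp away. Replicate 1 had 41.5 there and replicate 2 had 26.4, and its IDR between the replicates was 0.0239. A further region, with an IDR of 0.0440, lay in an exon of CG4467, 11 bp from the start of that gene, with signals of 22.5 and 38.3.

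Of the 5 conservative peaks, 2 were in the thresholded lists of both replicates, at oc and the farther peak of ems. A further 2 were in a single list and 1 was in neither. Among all conservative peaks on the arms the shares were 41.7%, 29.0% and 29.2%. All 5 overlapped a ranked region in each replicate. The conservative list is built on agreement between the replicates, so this overlap is no separate support.

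The order of the genes was close to the same in the replicates when each was placed by the signal of its strongest region. In the list of both replicates, 83.1% of protein-coding genes had a weaker strongest region than oc, 83.0% than ems and 79.2% than cnc. For knrl the share was 63.2%, for tll 23.1%, for hkb 22.5%, for gt 5.15%, for kni 2.68% and for btd 1.22%. The low shares moved by over 1.5 times between the lists. For tll the share was 44.1% in replicate 1 and 17.2% in replicate 2, and for hkb 12.3% and 21.2%. For gt it was 1.17% and 12.1%, for kni 5.41% and 7.02%, and for btd 2.84% and 1.07%. In both replicates oc, ems and cnc took the first 3 places and knrl the fourth. The next places went to tll and hkb, which changed order between the replicates, and the last 3 to gt, kni and btd. Within the first 3, cnc led in replicate 1, with 82.5%, and oc in replicate 2, with 86.9%. The order of oc and ems was the same in both. Neither the place of cnc among the first 3, nor that of tll and hkb, nor that of gt, kni and btd was the same in the replicates. The median strongest signal over all genes was 60.6, which oc, ems, cnc and knrl exceeded and the other 5 did not.

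**Figure D3:**
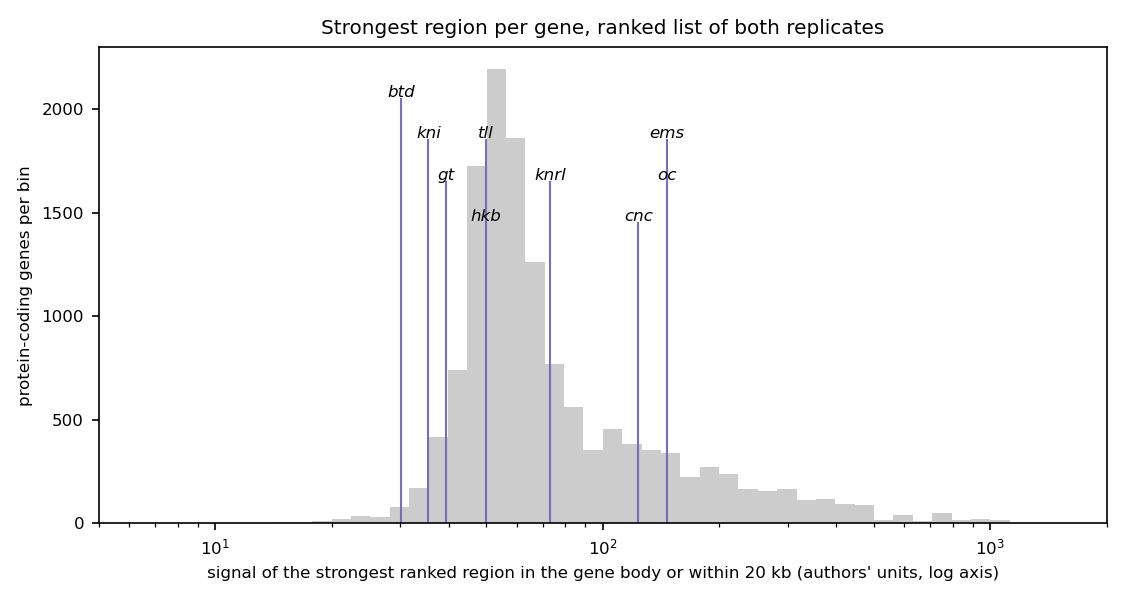
Number of protein-coding genes by the signal of the strongest ranked region in the gene body or within 20 kb (log axis, list of both replicates), with lines for the 9 genes. The lines of btd, kni and gt stand at 30.2, 35.5 and 39.3, left of most genes, and those of cnc, ems and oc at 123, 146 and 147.

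The 3 members with a body of at least 20000 bp, oc, knrl and cnc, all had a conservative peak, where 42.5% of 1020 protein-coding genes of that length did. Of the 6 members with a body of at most 5000 bp only ems had one, where the background was 33.3%. All 5 summits lay in the 20000 bp beside the genes. These length limits were set after the lists had been read. With 3 and 6 members, the counts are too small to read as a result about gene length, which was not tested. The strongest regions of the replicates overlapped at oc, ems and cnc, and at the other 6 genes they lay apart, by 2147 bp at hkb to 51153 bp at knrl. Of 13612 protein-coding genes with a region in both replicates, 32.3% had strongest regions that overlapped, so 3 of 9 is near the background.

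**Figure D4:**
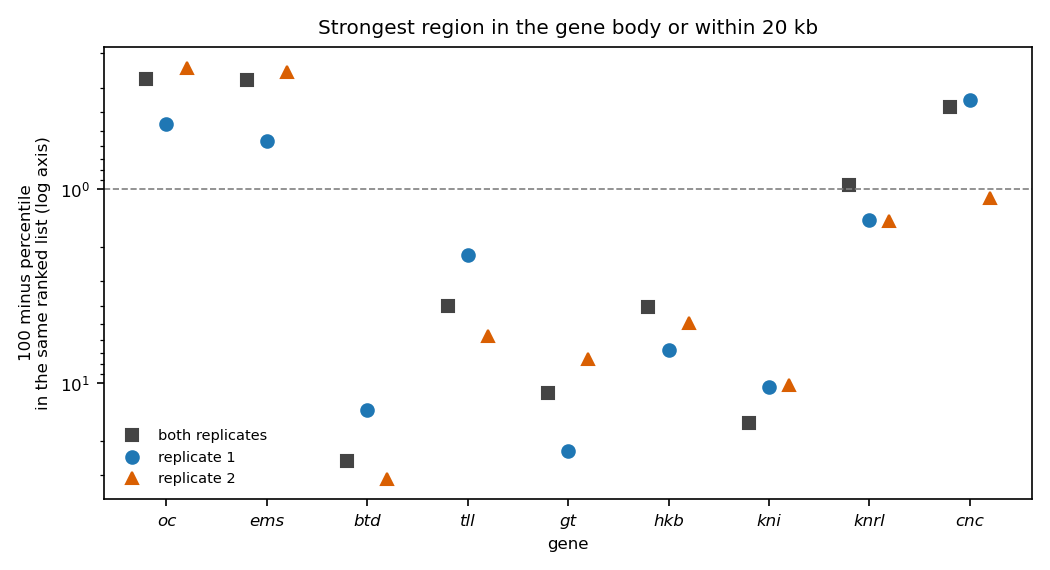
The strongest region in each gene's body or within 20 kb, plotted as 100 minus its percentile among the ranked regions of the same list (log axis, stronger regions at the top), for the list of both replicates (squares), replicate 1 (circles) and replicate 2 (triangles). In all 3 lists oc and ems are above the dashed line at the 99th percentile, cnc is above it in replicate 1 and at the 98.9th percentile in replicate 2, and knrl is at the 98.6th and 98.5th in the replicates.

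None of the 9 genes had a conservative summit within 500 bp of a start, where 4.26% of protein-coding genes did, which is too small a share to read the count of 0 as a result about these genes. Across the arms, 38.3% of conservative peaks lay within 500 bp of some start site and 30.3% lay over 5000 bp away. At 3 of the genes, tll, gt and cnc, a ranked region lay within 500 bp of a start, with signals of 11.1, 25.02 and 12.7, between the 23.2nd and 63.1st percentiles. At the other 6 there was none in the list of both replicates, and 58.6% of all protein-coding genes had such a region. In replicate 1 the genes were 4, oc, ems, tll and cnc, where the share of all genes was 57.2%. In replicate 2 they were gt and cnc, where it was 55.7%. Only cnc had a region this close in all 3 lists. By nearest start site, 3 of the 5 peaks belonged to a member, 1 at oc and 2 at ems. The knrl and cnc peaks lay nearer to the starts of CG13251 and of Irk1 and CG46310.

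The genes that act before, beside or after these 9 were read in the same windows. Of the maternal genes bcd, nos, osk, cad, pum, stau and exu, 4 of 7 had a conservative peak: bcd, nos, stau and exu. The share of all protein-coding genes was 34.5%, and 7 genes are too few to read the count as a result. In each case the nearest start was that of another gene, such as Ama at bcd. By nearest start alone, 6.33% of all genes had a peak. Of the Torso pathway genes, 8 of 13 had one, beside the background of 34.5%. This list was chosen with earlier results known and is short, so the count is not read as a result either. At phl (Raf), rl, cic and gro the strongest peak lay in an intron of the gene itself. The kinase gene phl had 5 peaks and a highest signal of 235, with 133 in replicate 1 and 98.5 in replicate 2. The kinase gene rl had 267, with 108 and 163. The corepressor gene gro had 179, 131 bp from a start, with 98.1 and 86.6. The repressor gene cic had 70.7, 300 bp from a start, with 32.0 and 41.9, and did not pass the threshold in the list of either replicate.

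The strongest peak in each of the windows of tor, csw, Sos and clos lay nearer to another gene. The strongest of these, 625 in the window of Sos, was 98 bp from the start of CenG1A. The remaining pathway genes, trk, tsl, drk, Dsor1 and fs(1)N, had no conservative peak. The trunk gap genes hb and Kr had none either. The windows of Kr and trk held no ranked region of any strength, so their lack of peaks has the same limit as the stretch at hkb, and the strongest ranked region in the window of hb had a signal of 54.9.

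Among 13 genes that lie beside or downstream of the head and terminal gap genes, 5 had a conservative peak, a share near the 34.5% of all protein-coding genes. The forkhead genes slp1 and slp2, which act with the gap genes in the head, share the strongest, with a signal of 249 in intergenic sequence 4321 bp from slp2, and with 132 in replicate 1 and 121 in replicate 2. The homeobox gene Lim1 had 121 in its own intron, with 65.5 and 53.9. The Sox gene D had 76.7, 11079 bp from its start, with 31.9 and 45.9, also below the threshold in each replicate. The peak in the window of zen was the one beside Ama that was also counted for bcd. The gut genes fkh and byn, targets of the terminal system, had none, and neither had croc, kn, toy, E5, Dfd and lab.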

How the data were processed

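Peak lists on dm6 from 1 group of whole embryos with 2 biological replicates were used, per the labels. No source used here names the aligner or the peak caller, and the depth of the libraries is unknown. Each list deposited by the authors gives per region a signal, a score (a scaled logarithm of the IDR) and a −log10 q. The ranked lists also hold regions that miss the threshold, so a ranked region alone is not a call of Dan binding. In the list of both replicates the strongest regions by signal at btd, tll, gt, hkb and kni had −log10 q of 0.110 to 0.123. A control experiment named in the labels was not analysed here. For both replicates together, the conservative list, the other thresholded list and the ranked list that holds all 1170 conservative peaks at the same place, signal and score were used. The second ranked list was not used.

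The 9 members and all lists of genes and strings were chosen with earlier results of these data known. Genes came from Ensembl release 115 (BDGP6.54), whose member coordinates equal those of the RefSeq Release 6 annotation. Of 35 other listed genes all were matched, nos as nanos and phl as Raf. A region belongs to a window when its summit does, and replicate overlaps need 1 bp. IDR values come from the ranked lists. A percentile is the rank of a region by signal, in percent, within its own ranked list. No test was run: the genes were chosen with results known, so their count is set beside the share of all genes. Named genes are the members, the genes nearest to their peaks, dan and the listed genes with a peak. Others in the text were named after their values were seen. The sequence at 1 of the 5 peaks is not reported here. Functions were tested on simulated data. Computation was in Python 3.11.15 (numpy 2.4.6, pandas 2.3.3), and plots were drawn with matplotlib 3.10.9.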

Additional observations from a re-analysis of the deposited data

How the results depend on the processing

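The number of the 9 genes with a peak, 4 in the conservative list, was also 4 with the other thresholded list (38.8% of all genes) and with 1 bp of a peak in the window (34.6%), and 5 at IDR of at most 0.05 (55.6%), where tll was added. It was 2 at IDR of at most 0.001 (15.7%), 0 with the gene body alone (3.5%) or 5000 bp (14.6%), 2 with 10000 bp (22.2%), 7 with 50000 bp (58.6%) and 2 with the nearest start alone (6.33%). Leaving out a replicate gave 2 to 3. The windows held 5 peaks, where 3.60 would lie at the density of the arms. These 5 became 6 with the other list, 2 at IDR of at most 0.001 and 10 at 0.05. They became 0 within 5000 bp, 13 within 50000 bp and 3 without either replicate. Strongest regions above the 99th percentile were found at 4 genes, also when ranked by −log10 q, and at 2 without replicate 1 and 3 without replicate 2. In the list of both replicates knrl, the weakest of the 4 by signal, was at place 4777 of 13968 protein-coding genes. Many other genes thus passed this line. The count of 2 peaks in both replicates' lists held with an overlap of at least 50%. For single genes, 15 of 27 percentiles moved by less than the spread between the replicates and 12 by more, the largest at hkb, from the 95.9th by signal to the 40.8th by −log10 q. The spread is the standard deviation of the percentiles of the 2 replicates, and these same percentiles are among the values compared. It is therefore a rough measure, as low as 0.0194 at knrl. Narrower windows and stricter limits admit fewer peaks by construction. For the other changes, the cause was not tested. No paired analysis was possible because there is a single group. Depth is unknown, so the absence of a peak is a statement about these lists only.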

Other observations

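At dan, the gene that carries the tag, 5 conservative peaks lay in the same kind of window. The strongest had a signal of 269, with 189 in replicate 1 and 76.0 in replicate 2, and was in an intron of the neighbouring gene lobo, 5675 bp from the nearest start of dan.

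The windows of trk, Kr and toy held 0 regions of the ranked list of both replicates as used here, where the median over all genes was 47, and 13612 of 13968 protein-coding genes had at least 1. Mappability and read coverage there were not tested.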
